A study of Homo sapiens with 6 samples.

Results

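The 10 genes described here are feedback and immediate early genes of the ERK pathway, DUSP6, SPRY2, SPRY4, SPRED1, ETV4, ETV5, EGR1, FOS, FOSL1 and JUN. They were chosen by symbol, and all 10 were found among the 61155 gene symbols of the count table. Their levels were compared between wild-type (WT) H7 human embryonic stem cells (hESCs), an established cell line, and S6K1-/- H7 hESCs, with 3 libraries of bulk RNA sequencing in each group. S6K1-/- cells carry a CRISPR/Cas9 deletion aimed at exons 9 and 11 of RPS6KB1, the gene that encodes p70 S6 kinase 1 (S6K1). Both groups were undifferentiated cells grown without feeders on Matrigel in TeSR-E8 medium. GEO's labels also give all 6 libraries a time of week 5 and call the genotype of the S6K1-/- group a knockdown, whereas their treatment field and the methods describe undifferentiated cells, and the methods a knockout. The S6K1-/- cells are described as clone #1, so a difference between genotypes cannot be told apart from a difference between 1 clone and its parental line. The sources used here do not say whether replicates are separate cultures, nor whether WT cells were transfected, sorted and cloned as well, and p-values measure only the spread between these 6 libraries.

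In hESCs, fibroblast growth factor (FGF) in the medium binds FGF receptors and activates RAS, RAF, MEK and then ERK, a kinase that phosphorylates transcription factors in the nucleus. ERK activity raises the transcription of genes that dampen the same cascade. Among these are the phosphatase DUSP6 and the adaptor-like inhibitors of the Sprouty and SPRED families, and the ETS factors ETV4 and ETV5 are induced alongside them. Immediate early genes such as EGR1, FOS and JUN respond to growth factors within minutes, without new protein synthesis. FOS, FOSL1 and JUN proteins pair as the dimeric transcription factor AP-1. S6K1 acts below mTORC1 and phosphorylates ribosomal protein S6, among other substrates. Transcript levels of these genes are a readout of RNA abundance, and ERK phosphorylation was not measured in these libraries.

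Library totals lay between 21896698 and 24473013 counts, and 19521 genes passed the filter on low counts, all 10 members among them. RPS6KB1 itself fell from 831, 791 and 777 counts in WT to 464, 464 and 438 counts in S6K1-/- replicates 1, 2 and 3, with a log2 fold change of -0.75 (edgeR adjusted p = 2.52e-07). In sum, 10 pluripotency markers had 7468 to 7634 CPM (counts scaled to library size) in WT and 6997 to 7089 CPM in S6K1-/- libraries. DNMT3B was lower at an adjusted p under 0.001, with a mean of 1412 CPM in WT and 1106.5 CPM in S6K1-/- libraries. At 0.05, 2 markers were lower (DNMT3B and TDGF1) and 1 higher (ZFP42). With no overlap of libraries, 5 were lower and 1 higher. POU5F1, SOX2 and NANOG passed neither threshold (edgeR adjusted p = 0.733, 0.564 and 0.428). Of 9 markers of mesenchyme, 4 could be tested (COL1A1, COL1A2, PDGFRB and S100A4) and all 4 were lower, their sum falling from between 150 and 155 CPM to between 70.1 and 72.4 CPM. DCN, a defining marker of fibroblasts, had 0 counts in every library, and COL3A1, LUM, TWIST1 and PRRX1 had 3 counts or fewer in each. Over all genes tested, 2.54% were lower and 1.42% higher at 0.001, and 8.31% lower and 5.47% higher at 0.05. With no overlap of libraries, 16.7% were lower and 14.0% higher. Of the 6 mesendoderm markers tested, CER1 was lower at an adjusted p under 0.001, and 2 were lower and 1 higher at 0.05. Their libraries did not overlap for 5 lower and 1 higher. The sum was 20.6 to 24.2 CPM in WT and 18.5 to 19.0 CPM in S6K1-/- libraries. Of the 5 neuroectoderm markers tested, PAX6 was higher at 0.001, and 2 were higher at 0.05 (2 higher and 1 lower with no overlap), with sums of 478 to 501 and 470 to 489 CPM. The sum of the amnion and trophoblast markers was 20.1 to 21.7 CPM in WT and 17.3 to 19.4 CPM in S6K1-/- libraries, with HAND1 at 0 counts, and of the 3 tested KRT7 was lower at 0.05 (log2 fold change -0.82, edgeR adjusted p = 0.00103). Whether these marker changes have a part in the values of the members was not tested, and in bulk RNA fewer cells of a type and less RNA per cell cannot be told apart.

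In S6K1-/- hESCs, DUSP6, ETV5 and FOS rose and JUN fell, each with an adjusted p under 0.001, the threshold of the methods. That is 4 of 10 members, where 3.96% of all genes tested passed (1.42% higher and 2.54% lower). Of these calls at 0.001, the higher ones numbered 0 to 1 in place of 3, and the lower one 0 to 1, when any 1 library was left out. The changes were small, from an increase of 17.1% for DUSP6 to one of 56.5% for FOS, and JUN fell to 0.719 of its WT level. At an adjusted p under 0.05, 6 members were higher and 1 was lower, where 13.8% of all genes passed (5.47% higher and 8.31% lower). The 6 became 3 without S6K1-/- replicate 1, and 4 or 5 when another library was left out instead. For 8 members every library of one group lay beyond every library of the other, 6 of them higher and 2 lower in S6K1-/- hESCs, against 30.7% of all genes tested (14.0% higher and 16.7% lower). The median log2 fold change was 0.15 over the 10 members and -0.0024 over all genes. The 6 members that were higher at 0.05 are the 5 feedback genes and ETS factors other than SPRED1, together with FOS.

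**Figure D1:**
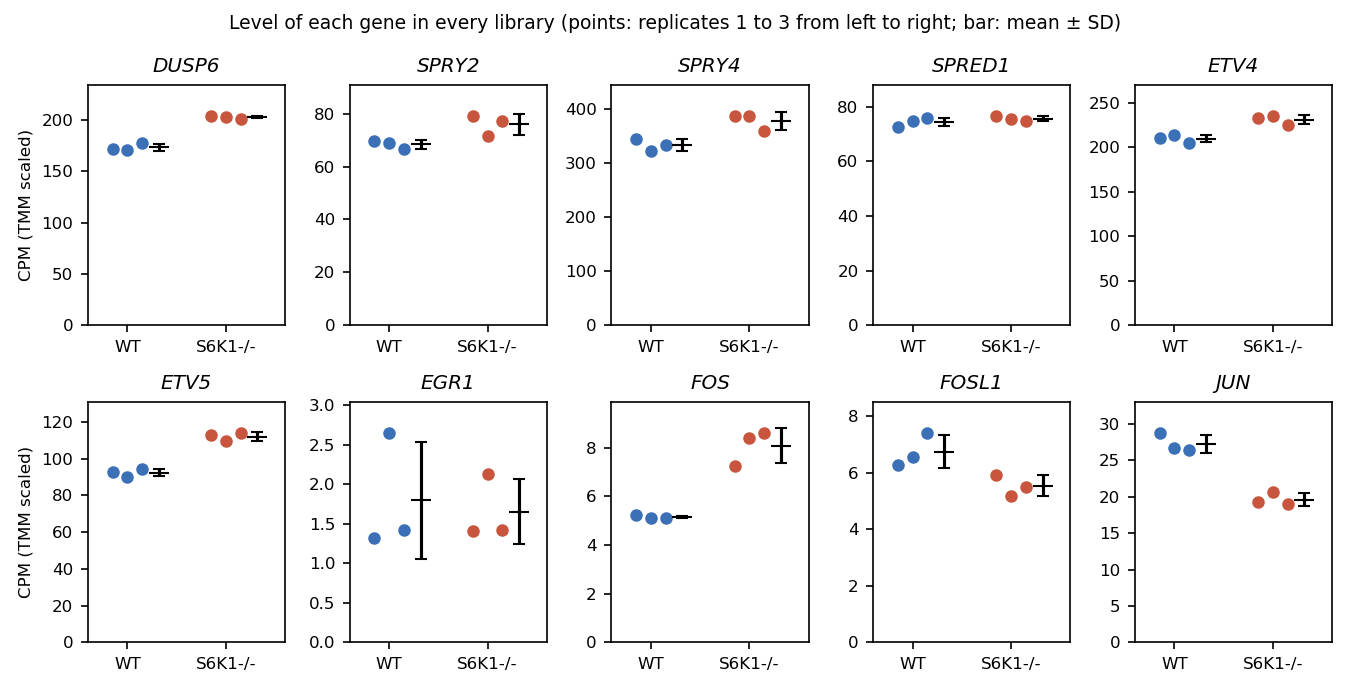
Level of each member in every library, in CPM scaled by TMM, with 1 panel per gene, vertical axes that start at 0, and 3 points per group for replicates 1, 2 and 3 from left to right beside the mean ± SD. The S6K1-/- points lie above all WT points for DUSP6, SPRY2, SPRY4, ETV4, ETV5 and FOS, below them for FOSL1 and JUN, and among them for SPRED1 and EGR1.

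**Figure D2:**
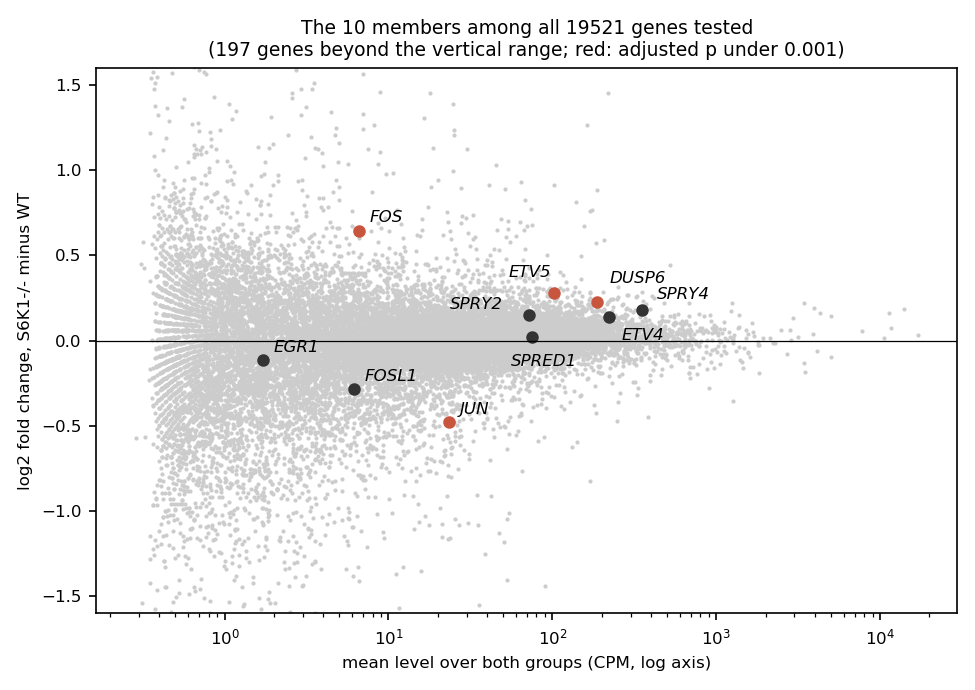
Log2 fold change (S6K1-/- minus WT) of each of the 19521 genes tested against its mean level in CPM on a log axis, with grey points for all genes, red for members with an adjusted p under 0.001 and black for the other members. FOS and JUN stand at 0.65 and -0.48 at low levels, and the feedback genes lie between 0.02 and 0.28 at higher levels (197 genes lie beyond the vertical range of 1.6).

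The feedback genes were among the well expressed members. Per kilobase of exons in GENCODE 44, ETV4 had the highest WT level at 59.7 ± 1.17 CPM per kb, followed by SPRY4 at 50.7 ± 1.70, DUSP6 at 45.0 ± 0.982 and SPRY2 at 21.3 ± 0.506 CPM per kb (SD, n = 3 each). ETV5 stood at 16.0 ± 0.346 and SPRED1 at 9.59 ± 0.208 CPM per kb in WT cells. The other members were lower on this scale, with JUN at 7.53 ± 0.347, FOSL1 at 3.58 ± 0.310, FOS at 1.62 ± 0.0168 and EGR1 at 0.572 ± 0.236 CPM per kb. No neighbours in this order had overlapping ranges of mean ± SD in WT. In S6K1-/- cells the order was the same, but FOS at 2.53 ± 0.229 and FOSL1 at 2.93 ± 0.197 CPM per kb had overlapping ranges of mean ± SD.

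DUSP6 encodes a cytoplasmic phosphatase that dephosphorylates ERK. The gene lies on the minus strand of chromosome 12 of GRCh38, from 89347235 to 89352501. Its level was 172, 171 and 178 CPM in WT replicates 1, 2 and 3, and 204, 203 and 202 CPM in S6K1-/- replicates 1, 2 and 3. All S6K1-/- libraries were thus above all WT libraries, with an SD of 3.79 CPM in WT and 1.36 CPM in S6K1-/- cells. The log2 fold change was 0.23 (standard error, SE, 0.038, 95% interval 0.15 to 0.31, edgeR adjusted p = 6.74e-04). With any 1 library left out the log2 fold change stayed between 0.22 and 0.25, but the adjusted p was between 0.00122 and 0.00577, so the call at 0.001 was lost in all 6 of these fits. It was also lost with the replicate number as a block (0.00131). An opposite-strand gene without a matched row in the counts, ENSG00000274021, is annotated over the 5′ end of DUSP6.

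Sprouty proteins inhibit signalling from receptor tyrosine kinases to RAS and RAF. SPRY4 (chromosome 5, minus strand, 142310427 to 142326455) had 343, 321 and 333 CPM in WT and 386, 386 and 358 CPM in S6K1-/- libraries. The third S6K1-/- library was the lowest of its group and still above the highest WT library. Its log2 fold change was 0.18 (SE 0.044, 95% interval 0.09 to 0.27), with an edgeR adjusted p of 0.0117, past 0.05 and not past 0.001. SPRY2 (chromosome 13, minus strand, 80335976 to 80341126) had 69.7, 68.9 and 66.6 CPM in WT and 79.2, 71.7 and 77.1 CPM in S6K1-/- libraries, so that WT replicate 1 and S6K1-/- replicate 2 came close without overlapping. Its log2 fold change was 0.15 (SE 0.046, edgeR adjusted p = 0.0410), and the adjusted p was above 0.05 with upper quartile scaling (0.0579) and with DESeq2's Wald test (0.0624). With 1 library left out, the adjusted p ran from 0.00551 to 0.0666 for SPRY4, above 0.05 without S6K1-/- replicate 1, and from 0.0150 to 0.188 for SPRY2, under 0.05 only without S6K1-/- replicate 2. Without the filter on low counts SPRY4 passed 0.001 (edgeR adjusted p = 6.80e-04). SPRY4-AS1, annotated over the 5′ end of SPRY4 on the opposite strand, had 16 to 31 counts per library, against 7732 to 9237 for SPRY4.

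SPRED1, which recruits the RAS inhibitor neurofibromin to the membrane, had no detectable difference. Its gene lies on the plus strand of chromosome 15, from 38252836 to 38357249. The WT libraries had 72.6, 74.8 and 75.7 CPM and the S6K1-/- libraries 76.6, 75.6 and 74.7 CPM, ranges that overlap. The log2 fold change was 0.02 with a 95% interval from -0.06 to 0.11 (edgeR adjusted p = 0.765). The upper end of this interval lies below the fitted log2 fold changes of the other feedback genes and ETS factors, although no difference between genes was tested.

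ETV4 and ETV5 are ETS transcription factors of the PEA3 group, whose transcription follows FGF and ERK activity in many embryonic tissues. ETV5 (chromosome 3, minus strand, 186046314 to 186110318) had 93.0, 90.3 and 94.2 CPM in WT and 113, 109 and 114 CPM in S6K1-/- libraries. The groups were well apart, with SDs of 2.00 and 2.39 CPM around means of 92.5 and 112 CPM. It rose by 21.2%, a log2 fold change of 0.28 (SE 0.040, edgeR adjusted p = 1.76e-04), and it was past 0.001 in 4 of 6 leave-one-out fits, with 0.00178 and 0.00143 without S6K1-/- replicates 1 and 3. ETV4 (chromosome 17, minus strand, 43527844 to 43579620) had 211, 214 and 205 CPM in WT and 233, 235 and 226 CPM in S6K1-/- libraries. These groups did not overlap either, and the log2 fold change was 0.14 (SE 0.038, edgeR adjusted p = 0.0239). The adjusted p of ETV4 was above 0.05 without WT replicate 3 (0.0873) and without S6K1-/- replicates 1 and 2 (0.0933 and 0.0809). ETV4 lies within the annotated span of DHX8 on the opposite strand, and since the strand setting of the counting is not given in the sources used here, reads of the pair may have been mixed in these counts.

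Among the immediate early genes, FOS rose and JUN fell. FOS (chromosome 14, plus strand, 75278826 to 75282230) encodes the AP-1 subunit c-Fos. It had 127, 126 and 119 counts in WT and 170, 201 and 187 in S6K1-/- libraries, which gave 5.22, 5.13 and 5.12 CPM against 7.24, 8.40 and 8.59 CPM. The WT libraries were nearly equal, and every S6K1-/- library was higher than each of them. The log2 fold change was 0.65 (SE 0.101, 95% interval 0.43 to 0.86, edgeR adjusted p = 4.05e-04). With each library left out in turn it stayed between 0.61 and 0.72, and the adjusted p passed 0.001 only without S6K1-/- replicate 1, with a highest value of 0.00315. With the replicate number as a block it was 0.00129.

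JUN (chromosome 1, minus strand, 58776845 to 58784048) encodes c-Jun, the partner of FOS proteins in AP-1. Its counts were 700, 656 and 615 in WT and 452, 494 and 413 in S6K1-/- libraries, or 28.8, 26.7 and 26.5 CPM against 19.3, 20.6 and 19.0 CPM. The lowest WT library was well above the highest S6K1-/- library. JUN fell by 0.48 on the log2 scale (SE 0.063, edgeR adjusted p = 8.82e-05), the smallest adjusted p among the 10 members. It passed 0.001 in 5 of 6 leave-one-out fits, and the adjusted p was 0.00133 without S6K1-/- replicate 3.

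FOSL1 (chromosome 11, minus strand, 65892049 to 65900573), which encodes the AP-1 subunit FRA1, had 153, 161 and 172 counts in WT and 139, 124 and 120 in S6K1-/- libraries. Scaled to depth these were 6.28, 6.55 and 7.40 CPM against 5.92, 5.18 and 5.51 CPM, so the groups did not overlap, but WT replicate 1 and S6K1-/- replicate 1 were close. The log2 fold change was -0.28 (SE 0.105, 95% interval -0.51 to -0.06, edgeR adjusted p = 0.0934), which passed neither threshold.

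EGR1 (chromosome 5, plus strand, 138465479 to 138469303), a zinc finger factor and a common readout of ERK activity, had a low RNA level in both groups. It had 32, 65 and 33 counts in WT and 33, 51 and 31 counts in S6K1-/- libraries. The second library was the highest in both groups, and the ranges overlap. The log2 fold change was -0.12 with a 95% interval from -0.68 to 0.45 (edgeR adjusted p = 0.833), and no difference was detectable with these counts and this spread. Its sign turned to 0.28 without WT replicate 2 and to 0.05 without the second library of both groups, a setting chosen after seeing the data.

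**Figure D3:**
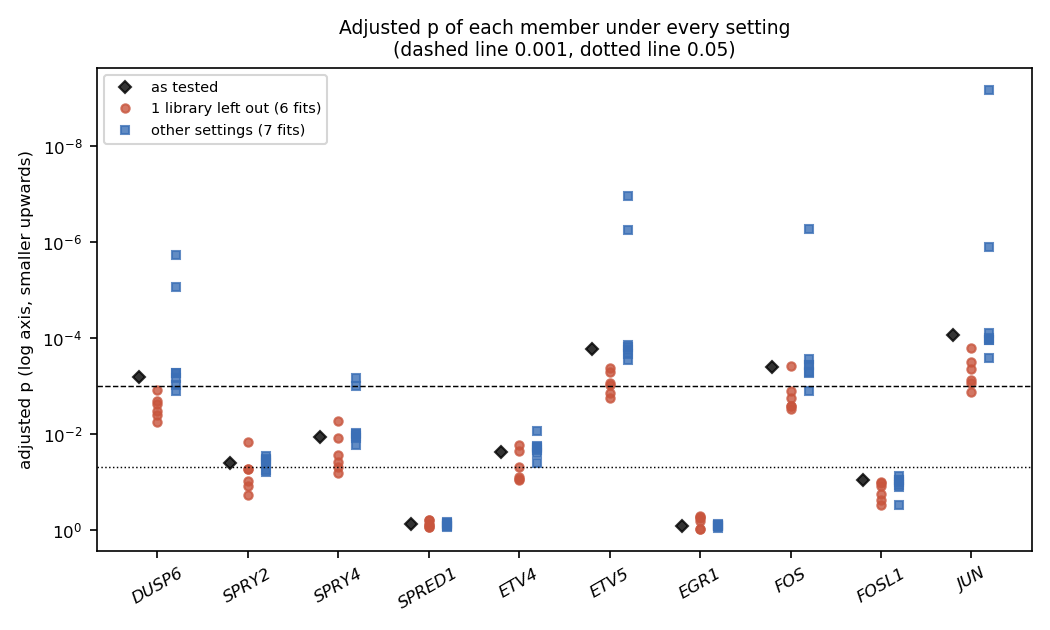
Adjusted p of each member on a log axis with smaller values upwards, as tested (diamonds), with 1 library left out in each of 6 fits (circles) and under 7 other settings (squares), with lines at 0.001 and 0.05. JUN and ETV5 stay near or above the line at 0.001 in all fits, while DUSP6 and FOS drop below it in most fits with 1 library left out.

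The promoters of FOS, JUN and EGR1 are shown because these immediate early genes are textbook targets of serum response factor and of factors of the CREB, ATF and AP-1 families, and because FOS and JUN changed in opposite directions. RefSeq windows on GRCh38.p14 were matched for 7 of the 10 members (none for ETV4, ETV5 and FOSL1). Each sequence holds the 250 bases before the annotated start, 5′ to 3′ on the strand of the gene. Capitals mark matches, on either strand, to the CArG box bound by serum response factor, to TGACGT from the cyclic AMP response element, to the AP-1 site TGANTCA, to TGACATCA, the variant of it known from the JUN promoter, and to CCGGAA, an ETS core.
FOS chr14:75278578-75278827 (plus strand): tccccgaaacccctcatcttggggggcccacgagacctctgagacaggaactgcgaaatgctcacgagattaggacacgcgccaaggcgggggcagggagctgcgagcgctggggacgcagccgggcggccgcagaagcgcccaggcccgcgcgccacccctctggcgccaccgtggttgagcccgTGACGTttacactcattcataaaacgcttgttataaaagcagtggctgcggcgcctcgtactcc
JUN chr1:58784048-58784297 (minus strand): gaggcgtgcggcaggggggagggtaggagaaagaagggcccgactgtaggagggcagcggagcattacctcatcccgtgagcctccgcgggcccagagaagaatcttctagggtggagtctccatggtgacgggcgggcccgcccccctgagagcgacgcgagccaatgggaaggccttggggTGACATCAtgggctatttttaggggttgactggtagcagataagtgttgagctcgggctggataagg
EGR1 chr5:138465229-138465478 (plus strand): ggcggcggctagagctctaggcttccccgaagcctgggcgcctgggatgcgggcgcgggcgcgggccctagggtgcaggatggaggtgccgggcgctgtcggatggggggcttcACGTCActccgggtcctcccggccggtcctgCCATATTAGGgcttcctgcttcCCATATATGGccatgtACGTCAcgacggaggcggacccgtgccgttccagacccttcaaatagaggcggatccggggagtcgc

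FOS, the member that rose most, holds 1 match to TGACGT, which begins 64 bases before the start, and 7.10% of the 35116 RefSeq windows hold one. No CArG box was matched in the FOS window, but bases further than 250 before the start were not searched for any gene. JUN, the member that fell, holds 1 match to TGACATCA at 67 bases before the start, a motif found in 2.37% of windows. EGR1, which had no detectable difference, holds 2 CArG boxes, at 105 and 83 bases before the start, where 1.16% of windows have any, and 2 matches to TGACGT, at 136 and 67 bases. The windows of DUSP6, SPRY4 and SPRED1 hold none of the 5 motifs, and 1 of the 3 windows of SPRY2 holds CCGGAA, a motif in 14.5% of windows. TGANTCA, in 6.57% of windows, was not matched in the windows of the 7 members that had one. A match is a string of letters and says nothing about binding in these cells. Whether any motif has a part in the change of a gene was not tested.

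Paralogs of the members were set beside them, named here after their values were seen except DUSP5. SPRY1, the other Sprouty gene tested, had a log2 fold change of 0.22 (edgeR adjusted p = 0.00292), near those of SPRY2 and SPRY4. SPRED2 and SPRED3 had log2 fold changes of 0.10 and -0.05, with 95% intervals that include 0, as that of SPRED1 does. ETV1, the other PEA3 factor, had a log2 fold change of -0.09 with a 95% interval from -0.19 to 0.01, where ETV4 and ETV5 had 0.14 and 0.28. Among the other ERK, p38 and JNK phosphatases, DUSP5, a nuclear phosphatase of ERK, rose from 42.4 ± 1.35 to 56.6 ± 2.57 CPM (SD, n = 3 each), or by a log2 fold change of 0.42 (SE 0.049, edgeR adjusted p = 3.18e-05). DUSP9, an ERK phosphatase at 2.69 CPM in WT, had a log2 fold change of -0.87 (edgeR adjusted p = 0.00868), past 0.05 and not past 0.001. DUSP16, a phosphatase mainly of JNK and p38 at 86.5 CPM in WT, lay on the other side with a log2 fold change of 0.20 (edgeR adjusted p = 0.00573), also past 0.05 only.

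The AP-1 subunits were not uniform. The other FOS proteins had log2 fold changes below 0, at -0.84 for FOSB (35, 31 and 37 counts in WT, 19, 17 and 19 in S6K1-/- libraries, edgeR adjusted p = 0.0175) and -0.25 for FOSL2 (edgeR adjusted p = 0.105), while FOS had 0.65. JUNB and JUND had -0.15 and 0.05 with 95% intervals that include 0, while JUN had -0.48.

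**Figure D4:**
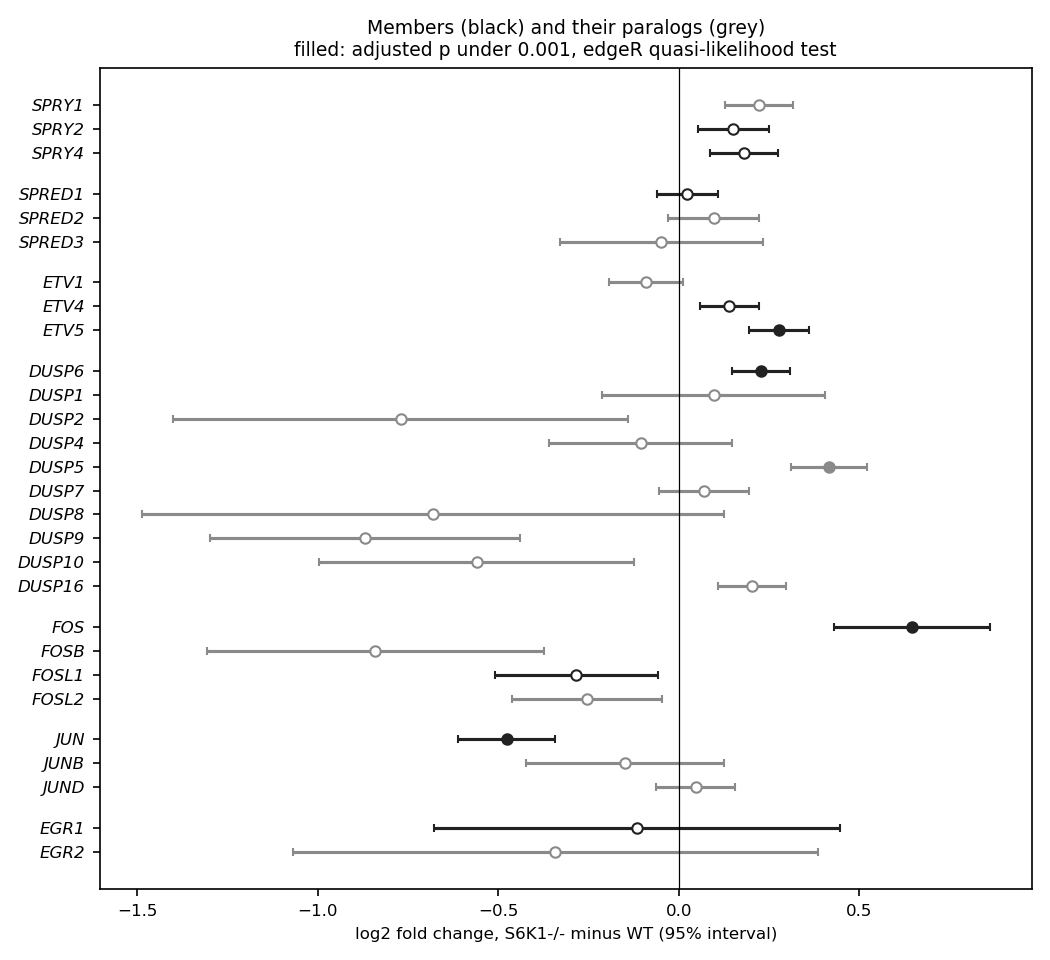
Log2 fold change (S6K1-/- minus WT) with its 95% interval for the members in black and their paralogs in grey, grouped by family, filled where the adjusted p was under 0.001. SPRY1, SPRY2 and SPRY4 lie together between 0.15 and 0.22, whereas the DUSP genes run from -0.87 to 0.42 and the FOS genes from -0.84 to 0.65.

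Other genes of the pathway were taken from lists written for this purpose. Of 20 other feedback genes, 19 were tested, with a median log2 fold change of -0.01. At an adjusted p under 0.001, 1 was higher (DUSP5) and 1 lower (1.42% and 2.54% of all genes). The lower gene was PHLDA1, an ERK-responsive gene of the pleckstrin homology-like family, which fell by 0.35 on the log2 scale (SE 0.045, edgeR adjusted p = 7.34e-05), in the direction opposite to DUSP6. Its counts were 1527, 1579 and 1468 in WT and 1118, 1242 and 1085 in S6K1-/- libraries, groups that do not overlap. It passed 0.001 in 5 of 6 leave-one-out fits, and without S6K1-/- replicate 1 its adjusted p was 0.00106, which left 1 call in the list in place of 2.

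Of 25 other immediate early genes, 21 were tested, with a median log2 fold change of -0.08. At an adjusted p under 0.001, 2 were lower and 0 higher (2.54% and 1.42% of all genes). CCN1, a secreted matrix protein that also responds to YAP and serum response factor, had 1572, 1588 and 1525 counts in WT and 658, 722 and 675 in S6K1-/- libraries, a log2 fold change of -1.13. BTG2, an antiproliferative gene induced by growth factors and by p53, fell from 14.9 ± 2.01 to 9.50 ± 0.553 CPM (SD, n = 3 each), or by a log2 fold change of -0.65 (edgeR adjusted p = 2.56e-04). BTG2 did not pass 0.001 in 4 of 6 leave-one-out fits, with a highest adjusted p of 0.00212.

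All 48 listed receptors, adaptors and kinases of the cascade were tested, 1 of them higher and 1 lower at an adjusted p under 0.001, a share near the 3.96% of all genes, with a median log2 fold change of 0.01. FGFR3, a receptor for FGF, rose from 452, 460 and 456 counts in WT to 646, 618 and 574 in S6K1-/- libraries, a log2 fold change of 0.49 (SE 0.060, edgeR adjusted p = 4.64e-05). RRAS, a RAS-related GTPase, fell by 0.67 on the log2 scale (edgeR adjusted p = 3.88e-04), and passed 0.001 in 1 of 6 leave-one-out fits. At 0.05, 3 genes of the list were lower and 4 higher, also near the share of all genes (13.8%), so the counts set the list apart at neither threshold. Among these, named after their values were seen, MAPK3, which encodes ERK1, had a log2 fold change of 0.30 (edgeR adjusted p = 0.00124), SHC1, an adaptor between receptors and RAS, had -0.16 (0.0111), and MAP2K1, which encodes MEK1, had -0.14 (0.0436).

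Of 22 genes of the FGF and EGF families, intracellular factors included, 15 were tested, with a median log2 fold change of -0.09. At an adjusted p under 0.001, 2 were lower and 1 higher (2.54% and 1.42% of all genes). At 0.05, 5 were lower and 2 higher (8.31% and 5.47% of all genes). FGF2, the ligand that also sustains hESCs in culture, had 3080, 3010 and 3129 counts in WT against 2276, 2306 and 2184 in S6K1-/- libraries, a log2 fold change of -0.39. FGF13, an intracellular FGF homologous factor, had 2060, 2114 and 2086 against 1537, 1529 and 1521 counts, a log2 fold change also of -0.39. FGF19, a secreted ligand, rose by 0.32 on the log2 scale, from 33.8 ± 0.552 to 42.1 ± 0.726 CPM (SD, n = 3 each), and passed 0.001 in 1 of 6 leave-one-out fits. The levels of the ligands in the medium were not measured.

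None of 13 transcription factors that drive immediate early genes, such as SRF and the ELK genes, passed 0.001 with edgeR or with DESeq2. Of these, 4 had an unadjusted p under 0.05, as did 5144 of all 19521 genes. At an adjusted p under 0.05, 3 were higher and 0 lower (5.47% and 8.31% of all genes). With no overlap of libraries, 5 were higher and 0 lower (14.0% and 16.7% of all genes). The smallest adjusted p were those of MEF2A (log2 fold change 0.20, edgeR adjusted p = 0.0120) and ATF2 (0.16, edgeR adjusted p = 0.0299). MRTFB, named after its value was seen, had a log2 fold change of 0.18 (edgeR adjusted p = 0.0371). With 1 library left out, the adjusted p ran from 0.0146 to 0.054 for MEF2A and from 0.0559 to 0.0974 for ATF2. Of 11 heat shock genes, 9 were tested and were also without a call at 0.001 with edgeR or DESeq2 (2 at an unadjusted p under 0.05, HSP90AB1 and HSPA8, with log2 fold changes of -0.13 and -0.12). HSPA1A and HSPA1B, strongly inducible genes of this list, had 0 or 1 counts in every library and were not tested.

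Of 20 genes known to respond to AP-1 in other cells, 18 were tested, 6 were lower and 1 was higher at an adjusted p under 0.001 (2.54% and 1.42% of all genes), with a median log2 fold change of -0.31 against -0.0024 over all genes. CD44, a hyaluronan receptor, fell from 241, 240 and 216 counts in WT to 81, 84 and 86 in S6K1-/- libraries, a log2 fold change of -1.41 (SE 0.100, edgeR adjusted p = 1.06e-07). VIM, an intermediate filament gene, fell by 0.55 and PLAU, a plasminogen activator, fell by 0.37 on the log2 scale, while MMP2, a matrix metalloproteinase, rose by 0.25. TIMP1 and THBS1 were lower as well. With 1 library left out, the list held 2 to 5 calls in place of 7, 2 of them without WT replicate 1 or S6K1-/- replicate 2 or 3, 3 without WT replicate 3 or S6K1-/- replicate 1, and 5 without WT replicate 2, PLAU passing 0.001 in none of the 6 fits and MMP2 in 1. With the replicate number as a block the list held 3 calls, and PLAU (0.00112) and MMP2 (0.00122) were among those lost. CD44 and VIM are also well expressed in mesenchymal cells. The 4 mesenchyme markers tested were lower too. The other listed markers, DCN, COL3A1, LUM, TWIST1 and PRRX1, had 3 counts or fewer in each library. Whether such cells are present, or have a part in these values, was not tested.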

How the data were processed

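Total RNA of undifferentiated WT and S6K1-/- H7 hESCs was sequenced by the authors as stranded poly(A) libraries with paired reads. The authors trimmed reads with Trim Galore 0.6.5, aligned them to GRCh38 with Bowtie2 2.4.5, which does not split reads across introns, and deposited whole-number counts per gene symbol from featureCounts. Which annotation was used, and with which strand setting, is not given in the sources used here. The authors' table of their own DESeq2 comparison (fold changes, statistics and p-values) was not used.

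Genes were kept with filterByExpr, libraries were scaled by TMM, and groups were compared with edgeR 4.0.16 (R 4.3.3), using its quasi-likelihood F test with genotype as the only factor and Benjamini-Hochberg adjustment over all 19521 genes tested, at the methods' threshold of 0.001. Standard errors are the log2 fold change over the square root of F, and 95% intervals use the moderated degrees of freedom. CPM are TMM scaled. The steps were tested on simulated data. Replicates of a group differed by a chi-square per degree of freedom of 2.22 to 4.46.

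Alternatives were DESeq2's size factors, upper quartile scaling, DESeq2's Wald test (DESeq2 1.42.0), removal of mitochondrially encoded genes, genes unfiltered, a minimum of 10 counts per library, a block for the replicate number and leave-one-out fits. The members, the lists and the rule for naming genes were chosen with earlier results of these data known. The rule names RPS6KB1, the members, and in each list up to 5 genes past 0.001, or the 2 with the smallest p where fewer pass. A gene that the rule names in 1 list is not reported here. Positions are from GENCODE 44.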

Additional observations from a re-analysis of the deposited data

How the results depend on the processing

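No member changed its sign in any setting tried except EGR1, which turned to 0.2798 on the log2 scale without WT replicate 2 (range -0.3444 to 0.2798 with 1 library left out) and to 0.0499 without the second library of both groups, a setting chosen after seeing the data. With 1 library left out, higher members at 0.001 numbered 0 to 1 in place of 3, lower members 0 to 1 in place of 1, and higher members at 0.05 3 to 5 in place of 6. The 0 values were both without S6K1-/- replicate 3, and the value of 3 was without S6K1-/- replicate 1. Without the second library of both groups, 1 member was higher at 0.001. In the same fits with 1 library left out, all genes called ran from 313 to 445 lower (496 with all libraries) and from 175 to 235 higher (278 with all libraries), moving by over 1.5 times without S6K1-/- replicate 3 for lower genes and without S6K1-/- replicates 1 or 2 for higher genes (175 and 179). Genes called in the lists ran from 1 to 2 for other feedback genes, other immediate early genes and the cascade, and from 2 to 5 for AP-1 linked genes. These fits rest on fewer libraries. Without the filter on low counts, 982 genes were lower and 591 higher, and 5 other feedback genes were called, and the cause was not tested. Replicate numbers were not taken as pairs, as deviations of same-numbered libraries correlated at 0.0276, -0.0243 and 0.0408. With the replicate number as a block, 1 member was higher at 0.001 in place of 3 (DUSP6 at an adjusted p of 0.00131 and FOS at 0.00129 from edgeR's quasi-likelihood test) and 3 AP-1 linked genes were called in place of 7. Other scalings moved the median log2 fold change of all genes by less than 0.1. Upper quartile scaling and DESeq2's Wald test each left 5 higher members at 0.05, without SPRY2. EGR1 is limited by low counts, 31 to 65 per library, and by its spread, with a coefficient of variation of 41.2% in WT.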
